A study of Arabidopsis thaliana with 12 samples.

Results

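The 92 Arabidopsis thaliana genes described here stood higher in the ordering of all probes when plants kept in photosystem I-specific light (PSI light) were also given DCMU. They were selected on the measured difference itself. Within each array column, all 3439 probes were ordered by intensity and each was given its rank as a fraction of the probes, 0 for the dimmest and 1 for the brightest. A probe with exactly 1 gene in the platform annotation was kept where its median rank over the 6 DCMU columns exceeded that over the 6 PSI light columns by 0.20 or more. Of 692 single-gene probes, 99 met this difference; 13 genes were set aside by name, of which 7 met it, and 92 remained. Because the same contrast chose these genes, their ranks, levels and differences between the groups are given as a description, with no test.

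Both groups were total RNA of wild-type plants of the ecotype C24. The plants of 1 group were grown in PSI light, and those of the other in PSI light with DCMU. Each group had 6 array columns, numbered 1 to 6. Dose, duration, plant age, tissue and hybridisation were not given in the sources used here. None of 10 marker genes of leaf, root and senescence had a probe of its own, so the tissue could not be checked against markers. In bulk RNA, fewer cells of a type and less RNA per cell cannot be told apart.

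DCMU is a herbicide that binds photosystem II and stops electrons from reaching plastoquinone, the mobile carrier between the photosystems. Light that mainly excites photosystem I drains electrons from the plastoquinone pool, whose redox state is a known signal from the chloroplast to plastid and nuclear genes. The proteins of most chloroplast processes are encoded in the nucleus, made in the cytosol and imported, and many of them act on RNA copied from the plastid's own small genome.

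Columns 1 and 2, 3 and 4, and 5 and 6 of a group resembled each other more closely than other columns of that group, with Spearman correlations over all probes of 0.976 to 0.991 against 0.921 to 0.960. They were therefore treated as duplicates of 1 hybridisation, which the labels do not state, and means and SDs of log2 levels are over 3 duplicate means a group (n = 3). In what follows, the word hybridisation stands for such a pair of columns, inferred from their correlation alone. Nothing in the labels says that these came from separate plants, so the SD may be technical. On the deposited scale of relative intensity, the PSI light columns had medians of 0.542 to 0.584 and the DCMU columns of 0.386 to 0.504, and 108 to 141 probes of a column were listed at 0. Log2 levels were therefore quantile normalised between columns and set to at least -3.19, the log2 of the 5th percentile of positive values. Precision is limited by how few arrays there were, which carry no read depth.

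The rank differences of the 92 genes ran from 0.20 to 0.689, with a median of 0.315, against a median of -0.0077 over all probes. At or above 0.20 stood 14.5% of all probes and 14.3% of single-gene probes, and these percentages belong to the contrast that chose the genes. The other direction held a similar share: 464 of all probes, or 13.5%, and 92 single-gene probes stood lower with DCMU by 0.20 or more. Differences of 0.3 or more were found in 52 of the 92 genes, of 0.4 or more in 31, of 0.5 or more in 14 and of 0.6 or more in 6.

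**Figure D1:**
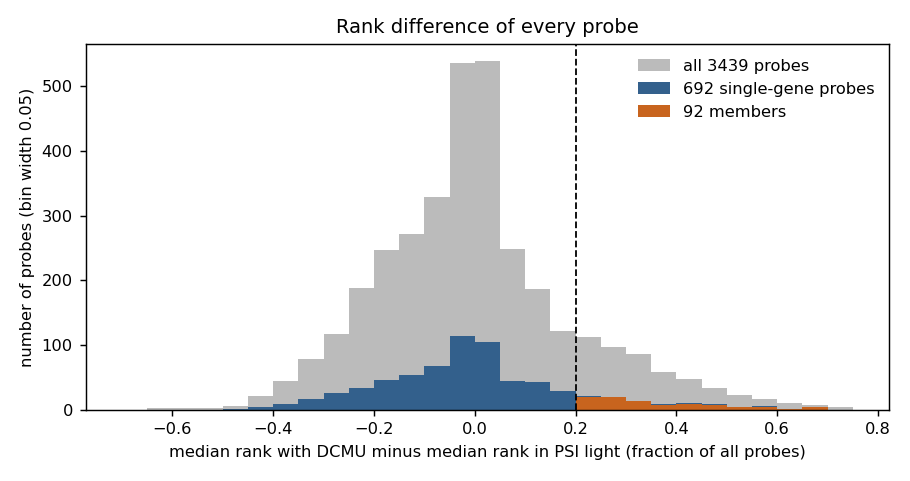
Number of probes (vertical axis) by rank difference, DCMU minus PSI light (horizontal axis, as a fraction of all probes, bins of 0.05), for all 3439 probes (grey), the 692 single-gene probes (blue) and the 92 genes described here (orange). The dashed line marks 0.20; the distribution has a tail on both sides of 0.

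Most of these genes were among the dimmer probes in PSI light and among the brighter ones with DCMU. Their median rank in PSI light ran from 0.0487 to 0.668, with a median of 0.25 against 0.467 for all single-gene probes, and 77 of 92 lay below 0.5 (83.7%, against 53.8% of single-gene probes). With DCMU it ran from 0.273 to 0.986, with a median of 0.654 against 0.458, and 68 lay above 0.5. The middle of the ordering was crossed by 53 of the 92. The share of single-gene probes was not counted beside the 68 and the 53. The rule used these same ranks, so nothing is read from the counts. The rule itself favours probes that start low, since those near the top have little room to gain.

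All 6 DCMU columns lay above all 6 PSI light columns for 83 of the 92 genes, beside 649 of all 3439 probes (18.9%) with that separation upwards. The separation downwards was more frequent, at 870 of all probes. The groups overlapped in rank for AT5G06930, DME, AT1G29700, AT2G36560, AT3G61540, CRR21, AT4G24160, AT5G61470 and AT1G56460. As log2 levels, the differences ran from 0.57 to 3.98 with a median of 1.36, where the median over all probes was -0.06. A difference of 1 or more was reached by 74 genes, beside 13.0% of single-gene probes upwards, and a difference of 2 or more by 12. Nothing is read from these percentages, because the rule used the same contrast. In the intensities as deposited, before any scaling between columns, the median over the 6 columns was higher with DCMU for all 92. The share of all probes was not counted for this, and the same contrast chose the genes, so nothing is read from it either. None of the genes was listed at 0 in a column; 27 were at or under the floor in at least 1 PSI light column, and none in a DCMU column. For those 27 the floor makes the log2 difference smaller than it would be without it.

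**Figure D2:**
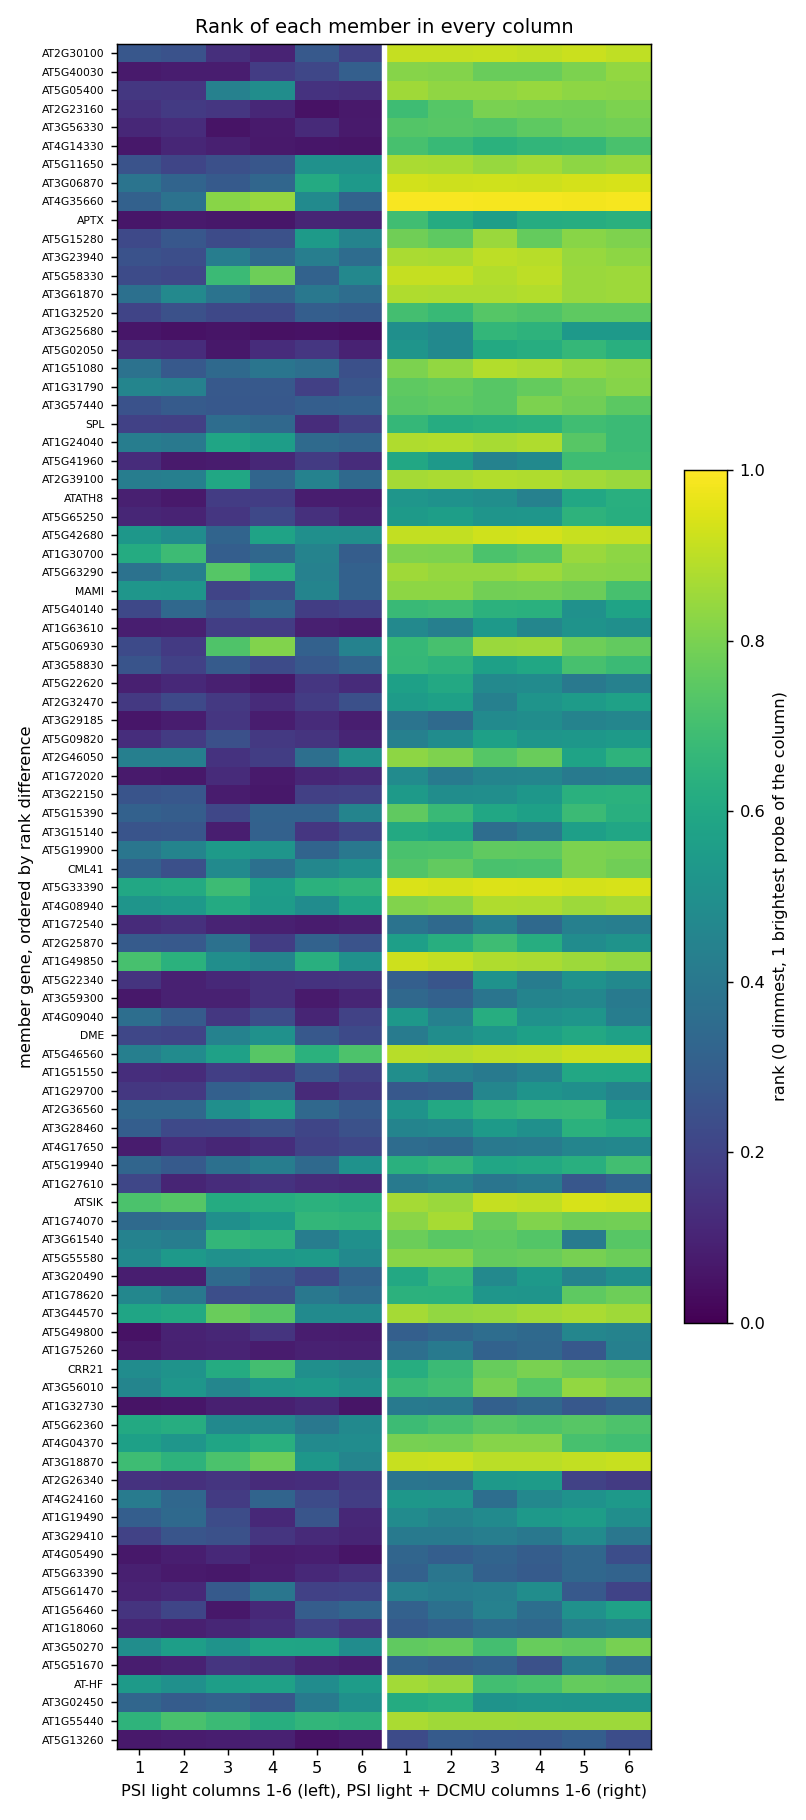
Rank of each of the 92 genes (rows, ordered by rank difference) in each of the 12 columns, with PSI light columns 1 to 6 on the left and DCMU columns 1 to 6 on the right. Colour runs from dark blue (rank 0, dimmest probe of the column) to yellow (rank 1, brightest); in every row the DCMU columns have the brighter median, and single PSI light columns, mostly 3 and 4, stand out in rows such as AT4G35660, AT5G58330 and AT5G06930.

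Roles could be given to 35 of the 92 genes, 8 through synonyms in the TAIR10.1 reference and 27 from general knowledge. The other 57 were given no role here and may include more genes of the kinds named below. The grouping by role was made after the values had been seen and serves only to order the description. Probes outside the 92 were given no role, so the group sizes have no share over all single-gene probes beside them. Nothing is read from those sizes.

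The 9 genes of chloroplast proteins had rank differences of 0.205 to 0.502 and log2 differences of 0.68 to 1.90, with medians of 0.366 and 1.32. AT5G58330 is NADP-malate dehydrogenase, the redox-regulated enzyme of the malate valve, which exports reducing power from the chloroplast. Its rank was 0.213 at the lowest, 0.391 at the median and 0.778 at the highest in PSI light, and 0.849, 0.893 and 0.913 with DCMU. The high PSI light values were those of columns 3 and 4. Its log2 level was -1.20 ± 0.91 in PSI light (SD, n = 3) and 0.61 ± 0.27 with DCMU, and the hybridisation means in PSI light were -2.03, -0.24 and -1.34. The difference of 1.81 (SE 0.55) was a 3.52-fold higher level with DCMU, and in columns 3 and 4 alone its rank difference was under 0.20.

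A pair of fibrillins, plastid proteins associated with lipid bodies and membranes, was present. AT5G09820, known for its part in plastoquinone synthesis, had ranks of 0.103, 0.158 and 0.244 (lowest, median and highest) in PSI light and of 0.434, 0.524 and 0.568 with DCMU. The groups were well apart, with log2 levels of -2.43 ± 0.27 and -0.94 ± 0.14, a 2.81-fold difference. AT5G19940, the other fibrillin, went from 0.285, 0.356 and 0.509 to 0.591, 0.632 and 0.697, and its log2 levels were -1.40 ± 0.23 and -0.56 ± 0.10. Its neighbours in probe number were also higher with DCMU, and its log2 difference of 0.84 was 0.23 once their running median was subtracted.

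AT5G22620 encodes the phosphatase that removes the phosphate of carboxyarabinitol phosphate, a night-time inhibitor of Rubisco. It stood at 0.0648, 0.101 and 0.157 in PSI light and at 0.404, 0.476 and 0.604 with DCMU, with no overlap. Its log2 level was -2.90 ± 0.32 against -0.99 ± 0.26, a 3.74-fold difference. AT3G29185, an assembly factor of the chloroplast ATP synthase, stood at 0.0611, 0.0836 and 0.158 and at 0.344, 0.454 and 0.491. It was at the floor in 3 PSI light columns, and its levels were -2.98 ± 0.20 and -1.19 ± 0.21. AT3G58830, a phosphatase in the making of phosphatidylglycerol, the phospholipid of thylakoids, had log2 levels of -1.85 ± 0.16 and -0.53 ± 0.18 and was 2.50-fold higher.

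AT1G78620, a kinase of phytyl phosphate in the synthesis of tocopherol, went from ranks of 0.241, 0.378 and 0.462 to 0.523, 0.641 and 0.78. Its groups did not overlap, but its hybridisations spread widely in both, at -1.49 ± 0.38 and -0.52 ± 0.40. AT1G74070, a cyclophilin-type protein of the thylakoid lumen, had levels of -0.95 ± 0.49 and 0.10 ± 0.19. AT3G02450, a protein related to the FtsH proteases of the chloroplast, had the smallest rank difference of these 9, at 0.205, with levels of -1.49 ± 0.33 and -0.81 ± 0.18. For these last 3 the log2 differences were 0.98 (SE 0.32), 1.05 (SE 0.30) and 0.68 (SE 0.21).

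**Figure D3:**
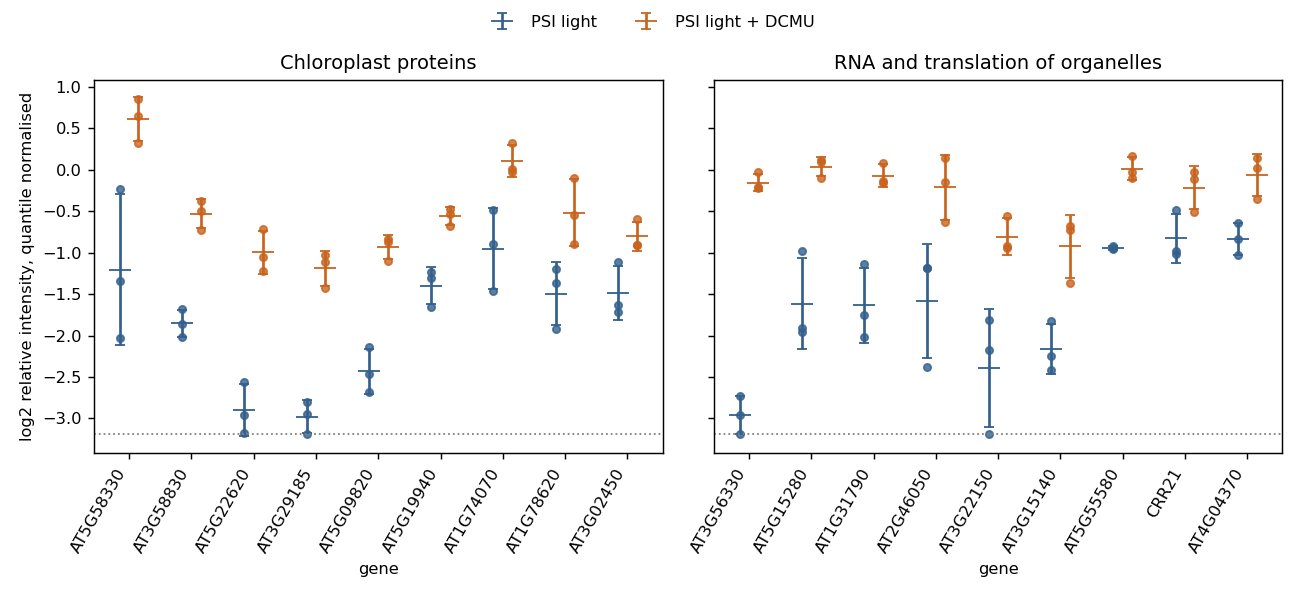
Log2 relative intensity after quantile normalisation (vertical axis) of the 9 genes of chloroplast proteins (left) and the 9 genes of RNA and translation in organelles (right). Points are the 3 means of presumed duplicate columns of a group (PSI light blue, DCMU orange). Horizontal bars are the mean, error bars the SD, and the dotted line is the floor at -3.19. The spread in PSI light is wide for genes such as AT5G58330 (SD 0.91) and AT3G22150 (SD 0.71).

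Another 9 genes encode proteins that act on RNA or translation, most of them in chloroplasts or mitochondria. Pentatricopeptide repeat proteins bind single organelle transcripts and direct their editing, cleavage or stability, and 6 of the 9 belong to this family. Rank differences of the 9 ran from 0.247 to 0.654, with a median of 0.343, and log2 differences from 0.61 to 2.80, with a median of 1.37. The largest was that of AT3G56330, a protein of the tRNA methyltransferase type. It had ranks of 0.0535, 0.0925 and 0.127 in PSI light and of 0.729, 0.746 and 0.785 with DCMU. All PSI light columns were near the bottom and 3 were at the floor, with log2 levels of -2.96 ± 0.23 and -0.16 ± 0.11, a 6.98-fold difference. Its log2 difference of 2.80 was 2.19 when an offset replaced the floor.

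CRR21 is a pentatricopeptide protein needed for editing of the plastid transcript ndhD, which encodes a subunit of the NDH complex. It had ranks of 0.472, 0.507 and 0.702 in PSI light and of 0.623, 0.764 and 0.798 with DCMU. Its groups overlapped. Columns 3 and 4 had the highest hybridisation mean in both groups, with means of -0.98, -0.49 and -1.02 in PSI light and -0.51, -0.03 and -0.11 with DCMU. The log2 difference was 0.61 (SE 0.23). AT3G22150, an editing factor of the plastid transcript atpF, was at 0.0651, 0.194 and 0.271 and at 0.489, 0.537 and 0.64, with no overlap. Its PSI light hybridisation means were -1.82, -3.19 and -2.17, the second at the floor, and its log2 difference was 1.59 (SE 0.43).

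Of the other pentatricopeptide genes, AT5G15280 had ranks of 0.219, 0.259 and 0.546 in PSI light and of 0.754, 0.794 and 0.848 with DCMU. Columns 5 and 6 were its high PSI light columns, and the levels were -1.62 ± 0.55 and 0.04 ± 0.12. AT1G31790 had levels of -1.63 ± 0.45 and -0.07 ± 0.13, and its highest PSI light values were in columns 1 and 2. AT2G46050 was low in columns 3 and 4 of PSI light, at -2.38 against -1.19 in both other hybridisations, and stood at -0.21 ± 0.39 with DCMU. AT4G04370 had ranks of 0.477, 0.547 and 0.631 and of 0.692, 0.794 and 0.82, and a log2 difference of 0.77 (SE 0.19). The hybridisation with the high or low PSI light value thus differed from gene to gene.

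AT5G55580 is an mTERF protein, of a family that binds organelle nucleic acids. It was among the most even of the 92 in PSI light, with ranks of 0.473, 0.519 and 0.546, and had 0.763, 0.785 and 0.824 with DCMU. The log2 level was -0.94 ± 0.02 against 0.01 ± 0.14, a 1.94-fold difference. AT3G15140, an exonuclease that matures plastid ribosomal RNA, had levels of -2.16 ± 0.30 and -0.93 ± 0.38. Columns 3 and 4 held its lowest and its highest PSI light value, with intensities of 0.134 and 0.383, so these presumed duplicates differed as much as the whole group.

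The 6 genes of metabolic enzymes had log2 differences of 0.80 to 1.99, with a median of 1.15. AT3G23940 is dihydroxyacid dehydratase, an enzyme of branched-chain amino acid synthesis in the plastid. It had ranks of 0.239, 0.348 and 0.428 in PSI light and of 0.828, 0.869 and 0.899 with DCMU, far apart, and was 3.97-fold higher with DCMU. AT-HF, also an amino acid enzyme, makes a precursor of histidine; its ranks were 0.484, 0.549 and 0.572 and then 0.699, 0.759 and 0.862. DCMU columns 1 and 2 were the high ones for AT-HF, and its levels were -0.87 ± 0.08 and -0.04 ± 0.35.

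AT5G11650, a hydrolase of the alpha/beta fold, had ranks of 0.208, 0.263 and 0.505 and of 0.828, 0.853 and 0.871, and was 3.83-fold higher with DCMU. Its highest PSI light values were in columns 5 and 6. AT1G30700, an oxidase of the berberine bridge type, had PSI light hybridisation means of -0.51, -1.61 and -1.41 and a log2 difference of 1.20 (SE 0.37). AT3G29410, of the terpene synthase type, had levels of -2.32 ± 0.43 and -1.22 ± 0.05. AT4G24160, a lipid acyltransferase and hydrolase, overlapped between the groups, with 0.174, 0.274 and 0.417 in PSI light and 0.363, 0.517 and 0.536 with DCMU.

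A group of 6 genes held protein kinases, F-box proteins and other signalling proteins. It included 3 of the 4 largest rank differences, in a grouping made after the values had been seen. AT5G40030 encodes a protein kinase. Its ranks were 0.0727, 0.129 and 0.303 in PSI light and 0.77, 0.809 and 0.837 with DCMU. The PSI light hybridisations differed widely, with means of -3.19, -2.73 and -1.87, the first at the floor, while those with DCMU lay at 0.12, -0.08 and 0.15. The 2 groups did not overlap, and the fold difference was 6.32.

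AT5G05400, of the family of nucleotide-binding, leucine-rich repeat disease resistance proteins, had ranks of 0.133, 0.159 and 0.492 in PSI light and of 0.825, 0.834 and 0.858 with DCMU. Columns 3 and 4 were its high PSI light columns, and its log2 levels were -2.01 ± 0.81 and 0.24 ± 0.05. AT2G23160 encodes an F-box protein, the part of a ubiquitin ligase that binds the substrate. It stood at 0.0486, 0.127 and 0.171 and at 0.69, 0.789 and 0.803, and was 6.27-fold higher with DCMU. AT1G51550, the other F-box gene of these 6, had levels of -2.31 ± 0.34 and -0.99 ± 0.27. AT1G72540, the other protein kinase gene of these 6, stayed in the lower part of the ordering in both groups. It stood at 0.0753, 0.0938 and 0.138 and at 0.342, 0.403 and 0.437. CML41, a calmodulin-like protein that binds calcium, had levels of -1.34 ± 0.40 and -0.16 ± 0.16, a 2.27-fold difference.

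The 5 genes of nuclear and cytoskeletal proteins had log2 differences of 0.79 to 2.69, with a median of 1.53. AT4G14330 encodes a kinesin, a motor that moves along microtubules. Its ranks were 0.0564, 0.0666 and 0.107 in PSI light and 0.639, 0.67 and 0.711 with DCMU. It was at the floor in 4 PSI light columns, so its log2 levels of -3.13 ± 0.09 and -0.43 ± 0.08 give a difference of 2.69 that depends on the floor, and adding an offset instead gave 2.11. APTX, related to the DNA repair protein aprataxin, was likewise at the floor in 4 PSI light columns, with ranks of 0.0596, 0.067 and 0.105 and of 0.559, 0.62 and 0.691.

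SPL, also known as NOZZLE, is a regulator required to form the sporocytes of anthers and ovules. It had ranks of 0.129, 0.192 and 0.356 in PSI light and of 0.618, 0.654 and 0.693 with DCMU, and was 2.89-fold higher. DME, a glycosylase that removes methylated cytosine from DNA, overlapped: 0.206, 0.25 and 0.506 in PSI light against 0.414, 0.547 and 0.604 with DCMU. Its high PSI light values were in columns 3 and 4, and its log2 difference was 0.79 (SE 0.34). AT1G19490, a bZIP transcription factor, had levels of -2.09 ± 0.43 and -0.97 ± 0.09.

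The gene with the largest rank difference, AT2G30100, has no role assigned here. Its ranks were 0.101, 0.223 and 0.278 in PSI light and 0.905, 0.912 and 0.918 with DCMU, a difference of 0.689. The deposited intensity was 0.163, 0.244 and 0.314 (lowest, median and highest) in PSI light and 1.47, 1.71 and 1.8 with DCMU, without overlap. Its log2 levels of -2.19 ± 0.50 and 0.86 ± 0.01 correspond to an 8.24-fold difference. AT4G35660 had the largest log2 difference of the 92, at 3.98 (SE 0.58), or 15.8-fold. Its intensity was 0.335, 0.471 and 1.36 in PSI light and 7.2, 8.27 and 10.5 with DCMU, and its rank went from 0.311, 0.428 and 0.844 to 0.983, 0.986 and 0.991. Columns 3 and 4 were the high PSI light columns of AT4G35660, and in those columns alone its rank difference was under 0.20 where its PSI light rank was already high.

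Among other genes without an assigned role, AT3G06870 had levels of -1.29 ± 0.48 and 1.15 ± 0.12 and was 5.42-fold higher with DCMU. AT3G61870 was even in both groups, at -1.36 ± 0.12 and 0.46 ± 0.12. AT3G57440 was more even still, at -1.74 ± 0.07 and -0.12 ± 0.05, with ranks of 0.252, 0.282 and 0.306 and of 0.74, 0.75 and 0.804. In both genes the PSI light columns lay close together and far below the DCMU columns. AT3G25680 was at the floor in each of the 6 PSI light columns, the only one of the 92, with intensities of 0.0108, 0.0418 and 0.0844 there and of 0.422, 0.488 and 0.613 with DCMU. Its log2 difference of 2.39 is understated by the floor, and was 1.80 with a floor at the 10th percentile.

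AT5G42680 had levels of -1.03 ± 0.11 and 0.96 ± 0.18, 3.97-fold higher with DCMU. AT1G51080 and AT2G39100 had log2 differences of 1.85 (SE 0.13) and 1.67 (SE 0.08), and neither overlapped between the groups. AT1G32520 had levels of -1.93 ± 0.18 and -0.27 ± 0.12. A further 2 of the leading 30 were low in PSI light: AT5G02050 at -2.75 ± 0.15 against -0.71 ± 0.24, and AT5G65250 at -2.63 ± 0.36 against -0.76 ± 0.18. ATATH8 stood at -2.87 ± 0.52 and -0.87 ± 0.23 and AT5G41960 at -2.80 ± 0.28 and -0.75 ± 0.35, both with PSI light columns at the floor. AT1G24040 differed by hybridisation under DCMU, with means of 0.55, 0.49 and -0.32, and MAMI under PSI light, with means of -0.91, -2.01 and -1.37.

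The hybridisations spread more in PSI light than with DCMU for these genes. The median SD of the log2 level was 0.305 in PSI light and 0.193 with DCMU, against 0.189 and 0.199 over all single-gene probes. The 3 hybridisation means of PSI light spanned 1 or more on the log2 scale for 15 of the 92 genes (16.3%, against 7.51% of single-gene probes), among them AT5G58330, MAMI, DME, AT4G35660 and AT5G63290. With DCMU a span of that size was found in AT2G26340 alone (1.09% of the 92, against 4.48%). No single PSI light hybridisation was high throughout: columns 3 and 4 held the highest mean for 36 genes (39.1%, against 35.7% of single-gene probes), columns 5 and 6 for 29 and columns 1 and 2 for 27. The rule favours probes that were low in PSI light, and the spreads were not compared with those of probes of like intensity. What part this spread has in the low PSI light levels was not tested.

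To describe how evenly the columns carried the difference, the rule was applied to 8 columns and the chosen genes were read in the 4 left out. All 12 columns had entered the choice of the 92 genes and may not come from separate plants, so these values are a description and no independent support. This division was added after the data had been seen. Without columns 1 and 2 of both groups, 98 genes were chosen, of which 71 stood higher with DCMU by 0.20 or more in columns 1 and 2, beside 14.6% of single-gene probes. Their median difference was 0.306 in the choosing columns and 0.299 in those left out. Without columns 3 and 4, 99 genes were chosen and 70 stood higher by 0.20 or more in the left-out columns, beside 13.9%. Here the medians were 0.313 and 0.288. Without columns 5 and 6, 91 were chosen and 75 stood higher by 0.20 or more, beside 16.9%, with medians of 0.328 and 0.345. The genes with the lowest values in the left-out columns were AT3G47100 at -0.058, AT5G40050 at -0.094 and AT3G26730 at -0.208, none of them among the 92. CRR21, AT1G29700 and AT4G24160 were under 0.20 both in columns 1 and 2 and in columns 3 and 4.

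**Figure D4:**
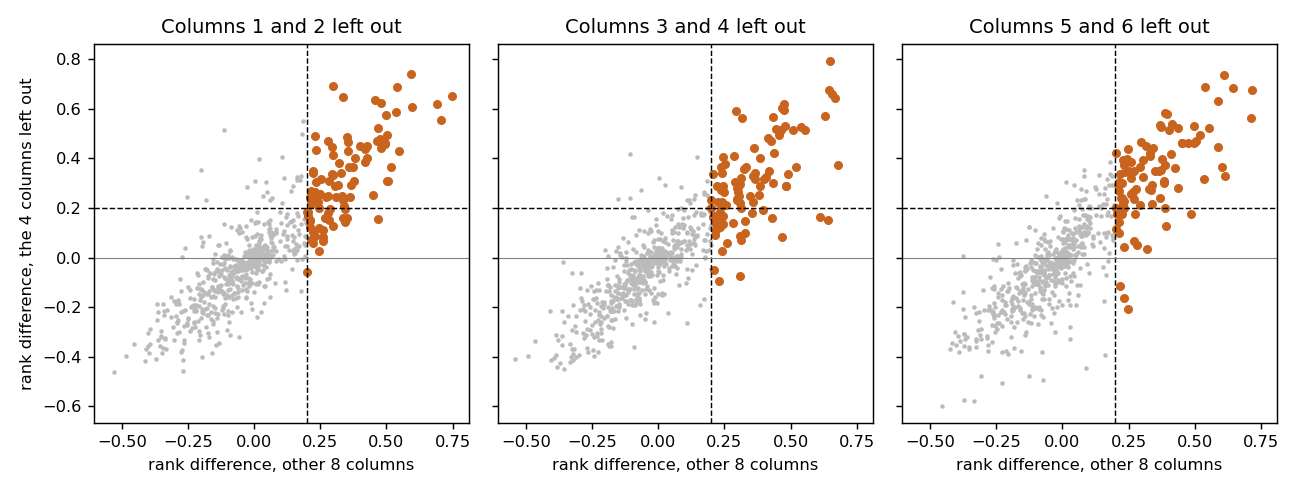
Rank difference (DCMU minus PSI light) of the single-gene probes in the 4 columns left out (vertical axis) against that in the other 8 columns (horizontal axis), for each pair of columns left out. The 13 genes set aside by name are not shown. Orange points are genes chosen on the 8 columns at 0.20 or more (98, 99 and 91 genes), and grey points are the other probes shown. Dashed lines mark 0.20. Most orange points lie above the horizontal line at 0, with 71, 70 and 75 at or above 0.20.

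At the edge of the rule, the 3 genes just inside were AT3G02450 at 0.205 and AT1G55440 and AT5G13260, both at 0.20. The 3 single-gene probes just outside were AT3G24190 at 0.195, AT5G65490 at 0.194 and AT5G19540 at 0.193. Their log2 differences mixed across the line, with 1.22 for AT5G65490 outside and 0.68 for AT3G02450 inside, so the threshold divides a continuous range.

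The probe number in the deposited table was examined as a feature that the rule did not use. The median rank difference of the 50 probes on either side varied along the numbering between -0.114 and 0.103. This local median was positive for 64 of the 92 genes (69.6%, against 44.8% of single-gene probes) and lay between -0.060 and 0.102 for them. Because it stayed at or under 0.103 and the rule asked for 0.20, every gene had to lie above its local median. Above it by 0.20 or more stood 85 of the 92, a count that the rule also favours. When the running median was subtracted within each column before the difference was taken, 66 of the 92 stayed at 0.20 or more. The other 26 came under it, the lowest being AT5G63390 at 0.062. Genes with a role among the 26 were AT5G19940 (0.074), AT3G02450 (0.104), CRR21 (0.143), AT1G74070 (0.162) and DME (0.183). No gene with a difference of 0.40 or more was among the 26, and the lowest corrected difference of the 30 leading genes was 0.316 (AT5G63290). Neighbouring numbers held these genes in 2 cases, AT5G05400 beside AT5G19900 and AT4G35660 beside AT5G06930. The deviations of the pairs from their group means correlated at 0.70 and 0.72 over the 12 columns, some of which may be duplicates of each other. The sources used here do not say what the probe number stands for on the array.

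**Figure D5:**
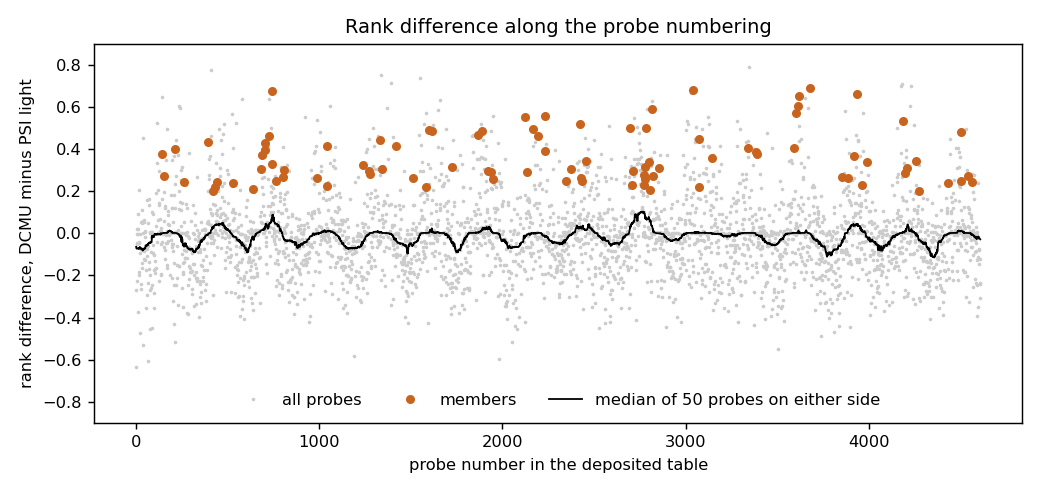
Rank difference (DCMU minus PSI light, vertical axis) against the probe number in the deposited table (horizontal axis) for all probes (grey) and the 92 genes (orange). The black line is the median of the 50 probes on either side, which runs between -0.114 and 0.103; every orange point lies above it.

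By locus name, 31 of the 92 genes were on chromosome 5, where they made up 21.7% of 143 single-gene probes, and 22 were on chromosome 3 (16.9% of 130). Chromosome 1 held 20 of 174 (11.5%), chromosome 4 held 10 of 120 (8.33%) and chromosome 2 held 9 of 124 (7.26%). These shares are given with no test.

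The function classes planned by words in gene names could hardly be filled, since the reference table gives symbols and synonyms and no product names. They held 30 single-gene probes in all and 2 of the 92 genes, APTX and AT5G58330.

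Single-gene probes were compared with the 3 leading genes by the Pearson correlation of the log2 level over the 12 columns. This is a description: the group difference itself contributes, and columns that may be duplicates are not independent. Closest to AT2G30100 were AT3G56330 (0.991), AT3G61870 (0.985) and AT4G14330 (0.980). For their deviations from the group means, the correlations were 0.76, 0.55 and 0.19. AT5G40030 was closest to AT5G11650 (0.984, and 0.84 for deviations), AT5G63390 (0.978 and 0.76) and AT3G06870 (0.978 and 0.75). For AT5G05400 these were AT1G63610 (0.991 and 0.94), AT4G35660 (0.987 and 0.93) and SPL (0.985 and 0.90). All of these are among the 92 genes, which were chosen for a shared group difference. Some are close in probe number: AT5G05400 (742) to AT1G63610 (704) and SPL (728), and AT2G30100 (3678) to AT3G56330 (3618) and AT4G14330 (3612). Others are not, such as AT4G35660 (2230) and AT3G61870 (2781). For AT5G05400, AT1G63610, AT4G35660 and SPL, columns 3 and 4 were the high PSI light columns. What part probe number has in these correlations was not tested.

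AT2G25870 was the gene with a second single-gene probe, and its probes went in opposite directions. The probe among the 92 had ranks of 0.183, 0.284 and 0.374 in PSI light and of 0.487, 0.593 and 0.689 with DCMU, with log2 levels of -1.76 ± 0.04 and -0.72 ± 0.24. The other probe stood higher in PSI light, at 0.832, 0.878 and 0.899, than with DCMU, at 0.491, 0.704 and 0.747, and its levels were 0.49 ± 0.20 and -0.51 ± 0.37. The log2 differences were 1.04 (SE 0.14) and -1.0 (SE 0.24), and neither pair of groups overlapped, so no direction is given for this gene.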

How the data were processed

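The authors deposited 1 linear relative intensity per probe and column, with the brightest probe of each column at the top of a common scale, per the deposited values. Background correction, image analysis and genome build were not given in the sources used here. Groups were taken from the labels. Probes were named through the platform annotation, which listed a single gene for 692 probes, more for 870 and no gene for 1877, and updated with the TAIR10.1 reference, where 690 of the 692 matched. No coordinates or sequences are given. Ranks were computed within columns over 3439 probes, with ties averaged. From the deposited intensity, log2 levels were computed after quantile normalisation (limma 3.58.1, R 4.3.3) with a floor at the 5th percentile of positive values (0.110). The computation of the rule was run on simulated data with large differences and independent noise in each column. The real columns are not like this, so that run checks the computation only and is no support for the genes. Python 3.11.15, pandas 2.3.3 and matplotlib 3.10.9 were used.

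The genes and lists were chosen with earlier results of these data known. Named were the 30 genes with the largest rank difference, 3 on each side of the threshold, members of each function class, a gene with a second probe, and the probes most like the 3 leading genes; genes with a role and examples of overlap or spread were added after their values were seen. Alternatives covered the summary of ranks, threshold, filter, scaling, floor, probe position and left-out columns. Same-numbered columns of the groups were not taken as pairs, because not all correlations of their deviations from the group means were above 0.1. These ran from 0.095 to 0.303 and were all positive. Whether such columns shared a block was not tested, and the SEs take no account of it.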

Additional observations from a re-analysis of the deposited data

Results flagged for a closer look

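In 114 groups of 6 columns, one for each of 57 named genes in each light condition, the highest or lowest log2 level was compared with the others. In 5 groups it stood apart by more than Dixon's 95% critical value; chance alone picks out about 1 in 20 groups, and columns that are duplicates of each other are not independent. In PSI light, AT4G14330 stood at -2.85 in column 2, with the other columns between -3.19 and -3.15 and 4 at the floor. In PSI light, AT5G42680 stood at -1.59 in column 3, below the others at -1.02 to -0.73. AT5G13260 stood at -3.05 in PSI light column 4, with the other 5 columns at the floor of -3.19. With 5 columns set to the same value, any other value is picked out, so nothing is read from this case. With DCMU, AT3G29410 stood at -1.03 in column 5, with the others at -1.30 to -1.20, and AT1G55440 at 0.47 in column 1, with the others at 0.33 to 0.36.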

How the results depend on the processing

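The number of single-gene probes chosen, 92, was 72 at a threshold of 0.25 and 118 at 0.15. It was 88 with mean ranks, 91 over duplicate means, 95 with dim probes left out, 91 with single-gene probes ranked alone, 79 after the position correction (66 of the 92 kept) and 82 by a log2 difference of 1 or more (74 kept). With the replicate block, the median of same-numbered differences, it was 87 (85 kept). Leaving out 1 column gave 88 to 95, and leaving out 1 pair of duplicates 88 to 101. No gene of the 92 came to 0 or below in any of these. The same columns chose the 92, so this was largely set by the rule, as was the sign of the log2 differences that follow. Both are a description and no independent support. The median log2 difference of the 92, 1.36, was 1.10 with no scaling, 1.19 with equal totals, 1.42 with median centring and 1.45 with cyclic loess, while the median of all probes was -0.32, -0.23, 0 and 0.02 in that order. It was 1.26 with a floor at the 10th percentile, 1.07 where an offset replaced the floor, 1.23 after the position correction, 1.40 with the replicate block, and 1.36 to 1.42 with a duplicate pair left out. Of 57 named genes under 14 such settings none changed sign; 4 moved by more than 1.5-fold, AT3G56330 to 2.19 and AT4G14330 to 2.11 with the offset, AT3G25680 to 1.80 with the higher floor and AT5G19940 to 0.23 with the position correction. The floor limits what can be said of the 27 genes that reach it in PSI light, and the cause of the other shifts was not tested.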

Other observations

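The difference between columns of the same number, 1 from each group, was positive for all 92 genes in columns 1 to 4 and for 91 in columns 5 and 6, with medians of 0.280 to 0.356. It was 0.20 or more for 71 genes at the fewest (column 4, beside 14.8% of all probes) and 81 at the most (columns 5 and 6, beside 15.8% and 15.5%). These are the values that chose the genes and are given as a description.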
